A study of Triticum monococcum with 54 samples.

Results

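Whole grain of einkorn (Triticum monococcum ssp. monococcum, line ERGE 35821), a diploid wheat, was compared between 200 and 100 degree days after anthesis. A degree day (°Cd) is a unit of accumulated temperature, and anthesis is the opening of the flower. The comparison rests on 6 of the 54 libraries of the series, 3 biological replicates at 200 °Cd and 3 at 100 °Cd, and on all 32047 genes of the table they belong to. Both groups carry the label N-S-, which stands for a nutrient solution with neither nitrogen nor sulfur. The 4 solutions of the study ran from 200 to 700 °Cd, so grain of 100 °Cd preceded them and grain of 200 °Cd is of the stage at which they began. The labels do not say whether the grain of 200 °Cd was cut before the first solution was given, so a part of that solution in the contrast cannot be told apart from grain age. Until anthesis the greenhouse plants received demineralized water. All 6 libraries were run on lane 3 of the sequencer, and the labels do not say whether a replicate pooled grains of several plants.

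In the first days after anthesis a wheat grain consists largely of maternal tissues, the pericarp and the nucellus, around a young endosperm that is still forming cells and dividing. Later the endosperm fills with starch and with storage proteins, gliadins and glutenins, which are encoded by multigene families whose transcripts become very abundant. The files pair no identifier with a name or description, so none of these families, and no marker of a grain tissue, could be looked up. Genes are therefore described by level, rank, length and course, and 4 are given by identifier. In whole grain, fewer cells of a type and less RNA per cell cannot be told apart.

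The libraries held 3939754, 3524361 and 4125999 counts at 200 °Cd, against 5275359, 5038159 and 5356417 at 100 °Cd, so depth was lower in all 3 libraries of 200 °Cd. Depth and stage therefore moved together, and the counts of detected and of switched genes are also given with each library thinned to 3524361 counts. Of the 32047 genes, 22603 had a count in at least 1 of the 6 libraries and 16204 passed the filter on low counts. Across these genes, the correlation of log2 CPM (CPM being counts scaled to a common library size, with an allowance for library composition) was 0.943 to 0.963 between replicates of 200 °Cd and 0.939 to 0.959 between replicates of 100 °Cd. Between a library of 200 and a library of 100 °Cd it was 0.795 to 0.838.

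Counts were concentrated in far fewer genes at 200 than at 100 °Cd. With genes ranked within each library, so that neither stage chose the list, the 20 most abundant took 12.3%, 15.4% and 13.2% of the counts at 200 °Cd, against 5.50%, 5.17% and 5.22% at 100 °Cd. The groups did not overlap, and the share was 2.57 times as high at 200 °Cd. The means were 13.6% ± 1.60 at 200 °Cd and 5.29% ± 0.18 at 100 °Cd (SD, n = 3 each), a difference of 8.34 percentage points (exact permutation p = 0.1, two-sided). That is the smallest p this test can give with 3 against 3 libraries, so it cannot pass 0.05. Adjusted over the 3 measures tested (this share, the effective number of genes and the number detected), p was 0.15.

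The single most abundant gene took 2.14% ± 0.29 of the counts at 200 °Cd and 0.503% ± 0.028 at 100 °Cd (SD, n = 3 each). The 100 most abundant took 24.8% ± 1.55 at 200 °Cd and 14.7% ± 0.53 at 100 °Cd, and the 1000 most abundant took 54.8% ± 0.95 at 200 °Cd and 46.2% ± 1.35 at 100 °Cd. It took 795, 697 and 750 genes to reach 50% of the counts at 200 °Cd, against 1124, 1245 and 1275 genes at 100 °Cd. In each of these measures the 3 libraries of 200 °Cd lay on one side of the 3 libraries of 100 °Cd.

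**Figure D1:**
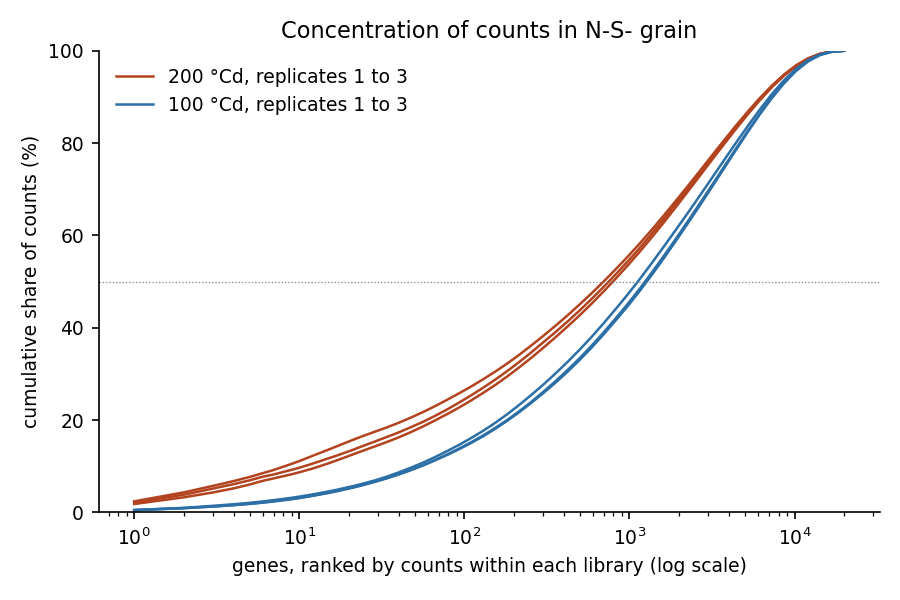
Cumulative share of library counts (%, linear axis) against the number of genes, ranked by counts within each library (log axis), for the 3 libraries of 200 °Cd and the 3 of 100 °Cd; the dotted line marks 50%. The 200 °Cd curves lie above the 100 °Cd curves up to rank 14297, past which the curves meet near 100%. They pass 50% at 697 to 795 genes at 200 °Cd, against 1124 to 1275 genes at 100 °Cd.

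The effective number of genes, the exponential of the Shannon entropy of the count shares, weighs all genes by their share and equals the number of genes only if all were equally abundant. It was 3987, 3471 and 3751 at 200 °Cd, against 5605, 5985 and 6074 at 100 °Cd. The means were 3736 ± 258 at 200 °Cd and 5888 ± 249 at 100 °Cd (SD, n = 3 each; exact permutation p = 0.1, two-sided, adjusted over the 3 measures 0.15). With the 20 most abundant genes of each library left out it was 5545 ± 53 at 200 °Cd and 6518 ± 256 at 100 °Cd, still without overlap. Counts were thus less evenly spread at 200 °Cd also outside the 20 leading genes.

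The number of genes detected did not separate the stages. At least 1 count was seen for 20028, 19276 and 18972 genes at 200 °Cd, against 19199, 19344 and 20220 at 100 °Cd, with overlapping groups (exact permutation p = 0.6, two-sided, also after adjustment). Thinned to equal depth the means were 19343 ± 530 at 200 °Cd and 19350 ± 491 at 100 °Cd (SD, n = 3 each). Genes with at least 5 counts were fewer at 200 °Cd, with 16592 ± 98 genes against 17052 ± 108 at 100 °Cd at equal depth, and these groups did not overlap.

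The genes that led at 200 °Cd were mostly minor ones at 100 °Cd. Of the 20 with the highest mean share at 200 °Cd, 4 were also among the 20 leading genes of 100 °Cd, and the median rank of the 20 at 100 °Cd was 630.5. Together they took 13.6% ± 1.64 of the counts at 200 °Cd and 2.04% ± 0.25 at 100 °Cd (SD, n = 3 each). In the test over all genes 18 of the 20 were higher at 200 °Cd, none was lower and 2 did not pass. In the background, 32.0% of the 16204 tested genes were called and 16.1% were called higher at 200 °Cd. Since these 20 were chosen by their level at 200 °Cd, a count of risers among them is a description.

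TmLoc019089, a gene of 225 bases, led the list and had the largest gain in share of any called gene. It took 1.82%, 2.40% and 2.18% of the counts at 200 °Cd, against 0.0941%, 0.0713% and 0.0388% at 100 °Cd, and was the most abundant gene in every library of 200 °Cd. Its level was 20013, 27524 and 24569 normalized CPM at 200 °Cd, against 869, 635 and 342 normalized CPM at 100 °Cd. The lowest library of 200 °Cd was far above the highest of 100 °Cd. Its rank by mean share was 1 at 200 °Cd and 147 at 100 °Cd. The fold change was 39.1 (log2 fold change 5.29 ± 0.26, SE), with a Benjamini-Hochberg adjusted p of 5.58e-12 in edgeR's quasi-likelihood fit.

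The genes of ranks 2, 3 and 4 at 200 °Cd rose by similar factors. They took 1.68% ± 0.25, 1.26% ± 0.19 and 0.932% ± 0.125 of the counts at 200 °Cd, against 0.0451% ± 0.0211, 0.0476% ± 0.0178 and 0.0230% ± 0.0099 at 100 °Cd (SD, n = 3 each). Their log2 fold changes were 5.54 ± 0.28, 5.05 ± 0.24 and 5.66 ± 0.26 (SE; edgeR adjusted p = 7.96e-12, 4.04e-12 and 2.35e-12). Ranks 5 and 6 were different: these genes already took 0.249% ± 0.020 and 0.118% ± 0.005 of the counts at 100 °Cd, where they ranked 8 and 56, and 0.846% ± 0.031 and 0.830% ± 0.050 at 200 °Cd. Ranks 13 and 14 at 200 °Cd were the genes of ranks 2 and 1 at 100 °Cd. They took 0.418% ± 0.024 and 0.409% ± 0.009 at 200 °Cd, against 0.446% ± 0.044 and 0.503% ± 0.028 at 100 °Cd, and did not pass the test (edgeR adjusted p = 0.178 and 0.897).

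**Figure D2:**
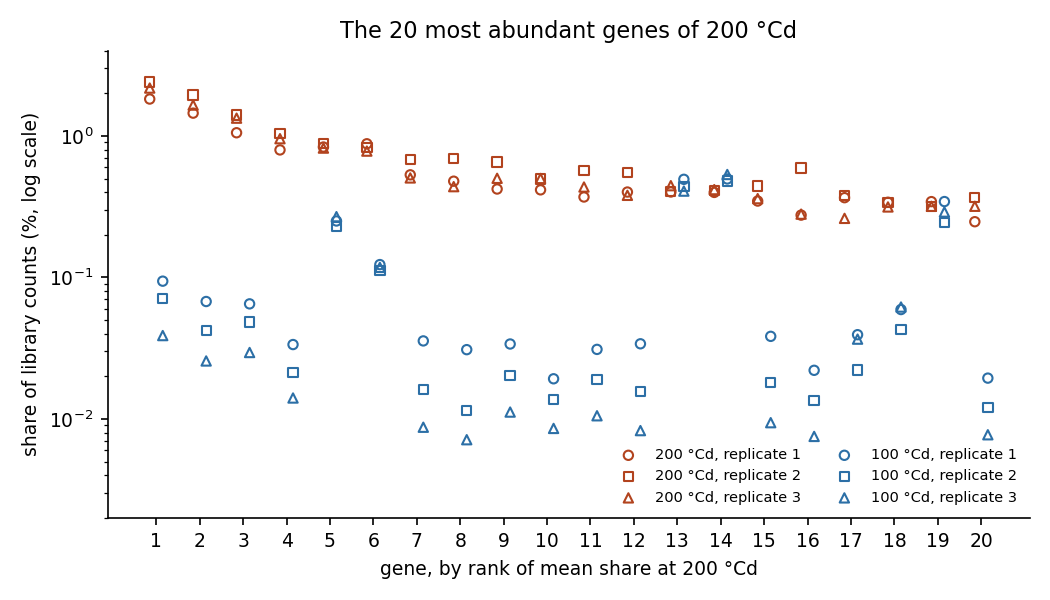
Share of library counts (%, log axis) of the 20 most abundant genes of 200 °Cd, in order of rank, for each replicate of 200 °Cd and of 100 °Cd. Ranks 13, 14 and 19 have similar shares at both stages, and 15 genes are at least 8-fold higher at 200 °Cd, with replicate 1 the highest of the 100 °Cd libraries by normalized CPM in all 15.

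Among the replicates of 100 °Cd the strongest risers of the leading genes of 200 °Cd varied together. Of the 20 leading genes of 200 °Cd, 15 were at least 8-fold higher than at 100 °Cd (8.80-fold to 50.5-fold). These 15 summed to 9.86%, 13.0% and 10.9% of the counts in replicates 1, 2 and 3 of 200 °Cd, against 0.687%, 0.457% and 0.342% in replicates 1, 2 and 3 of 100 °Cd. All 15 were highest in replicate 1 of 100 °Cd by normalized CPM, and 13 were lowest in replicate 3, with a median ratio of replicate 1 to replicate 3 of 2.76 (range 1.10 to 4.54). Gene by gene, the wider set of 240 genes at least 8-fold higher, with a mean of at least 10 CPM, did not share this order. Its summed share, which includes the 15 genes, was 0.985%, 0.661% and 0.607% in replicates 1, 2 and 3 of 100 °Cd. Of the 240, 117 were highest in replicate 1 of 100 °Cd, 41 in replicate 2 and 82 in replicate 3. The lowest was replicate 1 for 47, replicate 2 for 121 and replicate 3 for 72. At 200 °Cd 14 of the 15 leading genes were highest in replicate 2. The median coefficient of variation of these 15 between replicates was 18.4% at 200 °Cd and 49.3% at 100 °Cd. For the 2139 tested genes of at least 100 CPM it was 7.61% at 200 °Cd and 10.2% at 100 °Cd. The N-S- libraries of 300 °Cd, on the same lane, held 24.6% to 28.9% of their counts in these 15 genes. Libraries of the other solutions at 300 °Cd were on this lane too and were not examined. Whether reads of other libraries of the lane had a part in the counts at 100 °Cd was not tested.

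At 100 °Cd no gene stood out to the same degree, and the leading genes there lost share by smaller factors. The 20 leading genes of 100 °Cd took 4.11% ± 0.14 of the counts at 200 °Cd and 5.26% ± 0.15 at 100 °Cd (SD, n = 3 each). Of these 20, 9 were lower at 200 °Cd, 3 were higher and 8 did not pass the test, against 15.9% of all tested genes called lower. Their fitted log2 fold changes ran from -2.31 to 2.08, with a median of -0.08, and 13 of the 20 were still among the 100 leading genes of 200 °Cd.

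TmLoc030328, of 594 bases, had the largest loss in share of any called gene. It had 564, 651 and 869 normalized CPM at 200 °Cd, against 4072, 3222 and 3026 normalized CPM at 100 °Cd, with no overlap. Its share was 0.0618% ± 0.0135 at 200 °Cd and 0.382% ± 0.052 at 100 °Cd (SD, n = 3 each), and its rank was 181 at 200 °Cd and 3 at 100 °Cd. It was 4.95-fold lower at 200 °Cd (log2 fold change -2.31 ± 0.16, edgeR adjusted p = 8.01e-10). Per base of gene length it led all genes at 100 °Cd.

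The gain was narrow and the loss broad. Between the mean shares of the stages 25.5 percentage points of the counts changed place, against 7.22 to 9.37 points between replicates of a stage. The 20 genes with the largest gains held 12.2 points, or 48.1%, of all points gained, and 24 genes were enough for 50%. The 20 genes with the largest losses held 9.63% of all points lost, and 777 genes were needed for 50%. In total 7737 genes had a higher mean share at 200 °Cd and 14866 a lower one. Shares sum to a whole, so a gain of some genes lowers the share of all others, and the scaled comparison below is the one that sets each gene against the bulk of the genes.

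Relative to that bulk, about as many genes rose as fell. Of 16204 tested genes 2614 were higher and 2571 lower at 200 °Cd (edgeR, adjusted p under 0.05), and 6759 had an unadjusted p under 0.05. Of the genes called, 1392 were higher and 1410 lower by at least 2-fold, 17.3% of all tested genes together. With library totals alone as the scale, in which any gain in share lowers the level of all other genes, there were 1533 genes higher and 5073 lower. That scale put the median log2 fold change of all tested genes at -0.36, against -0.03 in the scaled comparison. With all 18 N-S- libraries in the fit 2230 of 16736 tested genes were higher and 1473 lower. That fit took the filter and the scale, as well as the spread, from the 18. The near balance thus depends on the libraries fitted too. By normalized CPM the libraries of the stages did not overlap for 45.8% of the tested genes.

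**Figure D3:**
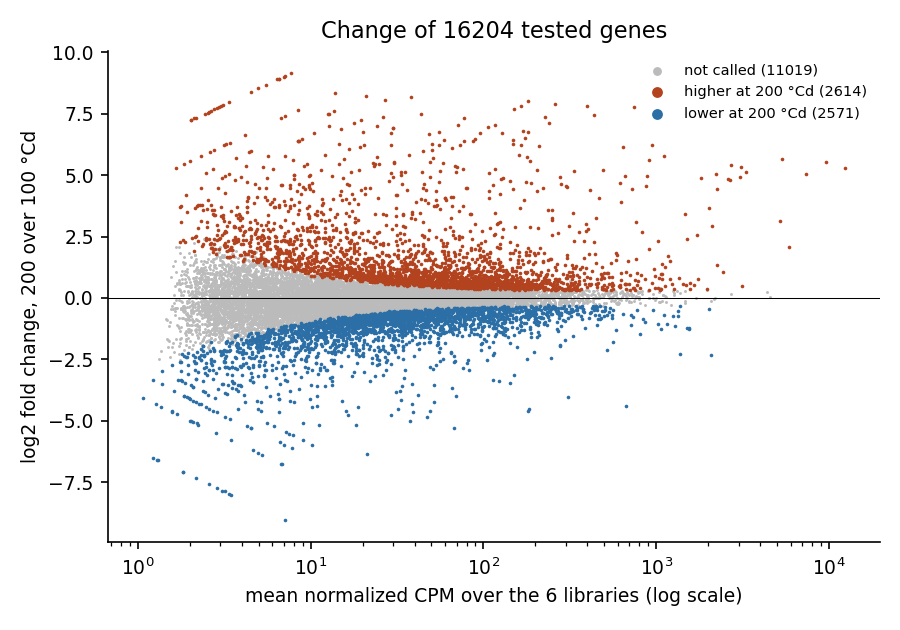
Log2 fold change of 200 over 100 °Cd against mean normalized CPM over the 6 libraries (log axis) for 16204 tested genes, coloured by call. The 2614 higher genes extend to 9.16 and include all 17 calls of at least 8-fold at 1000 CPM or more, and the 2571 lower genes reach -9.05 among low genes; the lines of points at low CPM are genes with few or no counts at a stage.

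The large changes were mostly rises. By at least 8-fold 398 genes rose and 186 fell, and by at least 16-fold 263 rose and 95 fell (359 rises and 245 falls of at least 8-fold with library totals alone as the scale). Of those past 8-fold, 240 higher and 52 lower genes had a mean of at least 10 CPM over the 6 libraries. The median change of the called genes was similar in both directions, 2.09-fold for the higher and 2.11-fold for the lower, and did not move with genes that had no count at the other stage set at their bounds. Among genes with more than 3 counts over each group, the largest fitted rise was 294-fold, with 746 counts at 200 °Cd against 4 at 100 °Cd, and the largest fitted fall 82.2-fold, with 5 counts at 200 °Cd against 731 at 100 °Cd. Without replicate 3 of 200 °Cd there were 479 rises and 284 falls of at least 8-fold.

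Among abundant genes rises outnumbered falls. Of the 91 tested genes whose mean over the 6 libraries reached 1000 CPM, 48 rose and 15 fell at 200 °Cd. With library totals alone as the scale 35 rose and 28 fell. A gene can enter a class through its level at 1 stage alone, and 17 of the 48 rose by at least 8-fold. The excess of rises thus overlaps with the concentration of counts at 200 °Cd and is a description. From 100 to 1000 CPM, 657 of 2048 were higher and 399 lower. From 10 to 100 CPM, 1450 of 8996 were higher and 1597 lower, and below 10 CPM 459 of 5069 were higher and 560 lower. Calls were made for 69.2%, 51.6%, 33.9% and 20.1% of the genes of these classes, from the most to the least abundant, and low counts give the test less precision.

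Together the higher genes came to 45.1% ± 1.37 of the counts at 200 °Cd and 20.3% ± 0.56 at 100 °Cd (SD, n = 3 each). The lower genes came to 10.6% ± 0.44 at 200 °Cd and 24.7% ± 0.68 at 100 °Cd. The 11019 genes that were not called held 43.9% ± 1.07 at 200 °Cd and 54.6% ± 0.28 at 100 °Cd. These sums describe the contrast that chose the genes and are no further evidence of it.

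Few genes were switched on or off outright, and those few were low. A gene was counted as switched on if it had at least 10 counts in each library of 200 °Cd and none in any library of 100 °Cd, and as switched off in the reverse case. There were 22 genes switched on and 15 switched off among 32047, and all 22 and 13 of the 15 passed the edgeR test, while the other 2 did not pass the filter on low counts. The genes switched on had 41 to 157 counts over the 3 libraries of 200 °Cd, a mean of 4.06 to 15.4 CPM, and were at least 23.1-fold to at least 88.4-fold higher than a floor of 3 counts over the 3 libraries of 100 °Cd. The genes switched off had 43 to 248 counts over the libraries of 100 °Cd, a mean of 2.46 to 14.3 CPM, and were at least 8.48-fold to at least 48.9-fold lower. The genes switched on held 0.0162% ± 0.0022 of the counts at 200 °Cd and those switched off 0.00844% ± 0.00078 of the counts at 100 °Cd (SD, n = 3 each).

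The gene switched on with the highest level was TmLoc009651, of 625 bases. It had 56, 59 and 42 counts at 200 °Cd, or 15.6, 19.2 and 11.5 normalized CPM, against no count in the 3 libraries of 100 °Cd. Its 157 counts make it at least 88.4-fold higher at 200 °Cd (edgeR adjusted p = 2.78e-07). The gene switched off with the highest level was TmLoc019780, of 8302 bases. It had no count in the 3 libraries of 200 °Cd, against 77, 100 and 71 counts at 100 °Cd, or 13.5, 17.7 and 11.7 normalized CPM. It was at least 48.9-fold lower at 200 °Cd (edgeR adjusted p = 7.18e-07).

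The counts of switched genes depend on where the limits are set. With a minimum of 5 counts in place of 10 there were 46 switched on and 55 off, with a minimum of 20 there were 8 on and 4 off, and with up to 1 count per library allowed at the other stage 39 on and 46 off. Thinned to equal depth there were 22 on and 11 off. Leaving out single libraries gave 25 to 41 switched on and 24 to 42 switched off. The rule asks for every library, so leaving one out can only keep or raise these numbers. In wider terms 152 genes had counts in all 3 libraries of 200 °Cd and none at 100 °Cd, and 178 had none at 200 °Cd and counts in all 3 libraries of 100 °Cd. By contrast 16573 genes had counts in all 6 libraries and 9444 in none.

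Short genes gained share. The median length of the 20 leading genes was 544.5 bases at 200 °Cd and 1888.5 bases at 100 °Cd, and 8 of the 20 were under 500 bases at 200 °Cd, against none at 100 °Cd. Genes under 500 bases together took 12.7% ± 0.84 of the counts at 200 °Cd and 6.34% ± 0.37 at 100 °Cd (SD, n = 3 each). Without the leading 20 genes of either stage they took 7.03% ± 0.17 at 200 °Cd and 6.08% ± 0.28 at 100 °Cd. Among tested genes under 500 bases 22.0% were called higher and 13.3% lower, against 16.1% and 15.9% of all tested genes, and among those of 3000 bases or more 16.6% were higher and 18.6% lower.

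Counts grow with gene length, so levels were also compared per base. Counts divided by length put the 20 most abundant genes of each library at 31.1% ± 3.27 of the total at 200 °Cd and 9.12% ± 0.51 at 100 °Cd (SD, n = 3 each). TmLoc019089 alone took 9.90% ± 1.06 of this total at 200 °Cd and 0.410% ± 0.157 at 100 °Cd. TmLoc030328, which led at 100 °Cd, took 0.109% ± 0.025 at 200 °Cd and 0.874% ± 0.090 at 100 °Cd. The effective number of genes per base was 1163 ± 194 at 200 °Cd and 4004 ± 283 at 100 °Cd. The division makes no allowance for fragment size, which matters most for genes as short as TmLoc019089.

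The later N-S- libraries show where the course went under that treatment. The solution without nitrogen and sulfur ran from 200 °Cd, so its part in the later stages cannot be told apart from grain age. The share of counts of the 20 leading genes of 200 °Cd was 2.04%, 13.6%, 28.2%, 28.9%, 23.7% and 18.8% on average at 100, 200, 300, 400, 500 and 600 °Cd. With genes ranked anew within each library, the 20 most abundant took 29.9% ± 2.39 at 300 °Cd and 35.2% ± 3.18 at 400 °Cd (SD, n = 3 each). The stages 100 to 300 °Cd share a lane, and so do 400 and 500 °Cd. Lane and stage cannot be told apart in the steps from 300 to 400 °Cd and from 500 to 600 °Cd.

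Of the 2614 genes higher at 200 °Cd, 760 had their highest mean level of the 6 stages at 200 °Cd, 895 at 300, 346 at 400, 250 at 500 and 363 at 600 °Cd. At 300 °Cd 1650 of them were higher still, and 182 were below their level of 100 °Cd. Of the 2571 genes lower at 200 °Cd, 2049 had their highest mean level at 100 °Cd and 366 at 600 °Cd. At 300 °Cd 2498 of them were below their level of 100 °Cd. The genes were chosen by their change between 100 and 200 °Cd, which keeps higher genes from peaking at 100 °Cd and lower genes from peaking at 200 °Cd, and these counts come from means with no test.

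**Figure D4:**
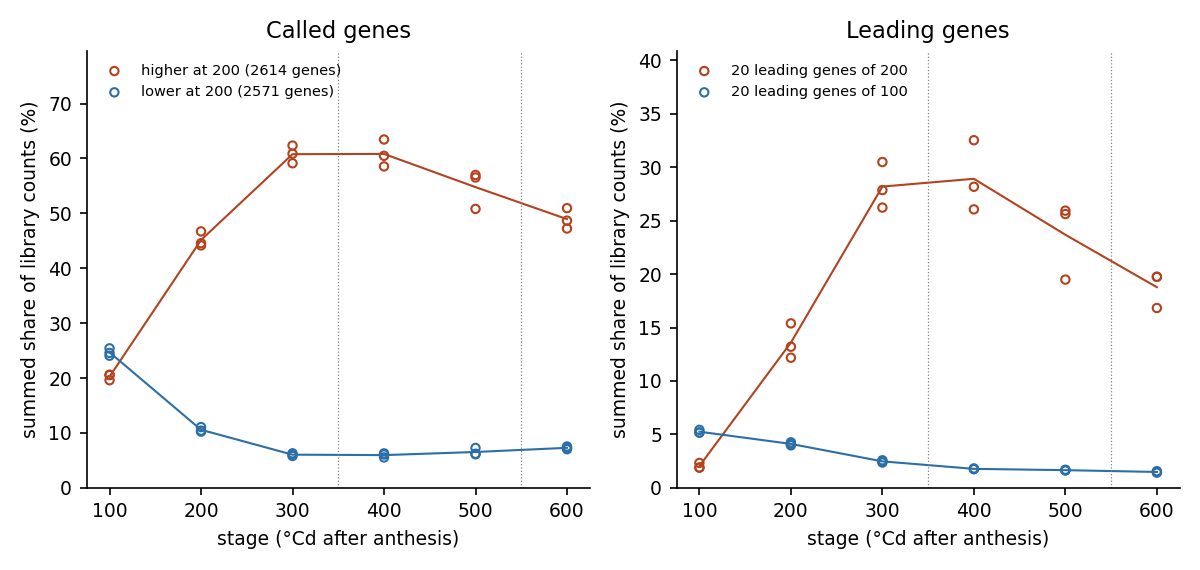
Summed share of library counts (%) by stage (°Cd) in 18 N-S- libraries, for the genes called higher and lower at 200 °Cd (left) and the 20 leading genes of 200 and of 100 °Cd (right); points are libraries, lines join stage means and dotted lines separate sequencing lanes. The higher genes average 45.1% at 200 °Cd and 60.8% at 300 °Cd, and the lower genes 10.6% at 200 °Cd and 6.04% at 300 °Cd.

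The 4 named genes took 4 different courses. Scaled over the 18 libraries, TmLoc019089 had a mean of 455, 17785, 73456, 114317, 101930 and 73795 CPM from 100 to 600 °Cd. Most of its rise in CPM came after 200 °Cd, while its largest rise in fold terms was from 100 to 200 °Cd. TmLoc030328 had 2543 CPM at 100 °Cd, 514 at 200 °Cd and 29.6 at 300 °Cd, and no count at 400 and 500 °Cd. At 600 °Cd this gene was seen in 1 library, at 0.429 CPM. TmLoc009651 was seen only at 200 °Cd, with 11.4 CPM, and at 300 °Cd, with 0.790 CPM, and had no count at the other 4 stages. TmLoc019780 had 10.5 CPM at 100 °Cd, no count at 200 °Cd and 2.72, 1.07 and 2.52 CPM in the 3 libraries of 300 °Cd. At 400 °Cd it had a count in 1 library, at 1.51 CPM, and at 500 and 600 °Cd it had none. Libraries held 1344965 to 1569361 counts at 400 °Cd, 1706315 to 1955164 at 500 °Cd and 2331217 to 2741109 at 600 °Cd. All were shallower than those of 100 and 200 °Cd, so a gene with no count there may still be expressed at a low level.

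**Figure D5:**
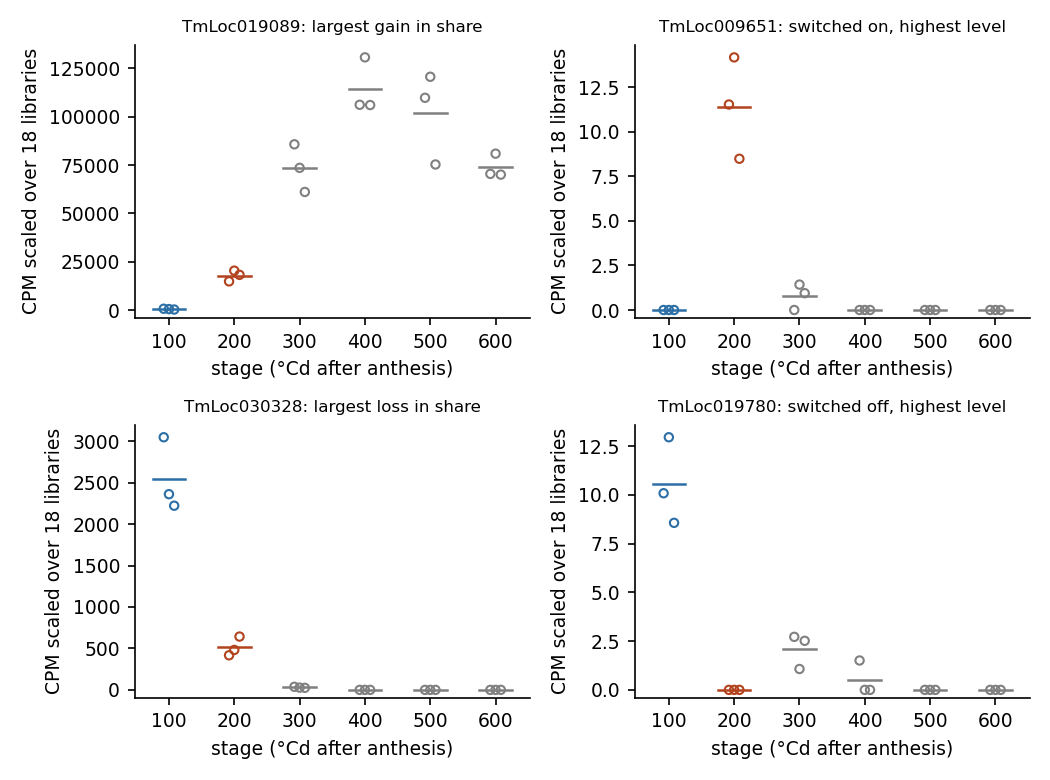
CPM scaled over 18 N-S- libraries (linear axes) by stage (°Cd) for the 4 named genes; points are libraries and bars are means, with 200 and 100 °Cd in colour. TmLoc019089 averages 73456 CPM at 300 °Cd, TmLoc030328 falls after 100 °Cd, TmLoc009651 is seen at 200 and 300 °Cd, and TmLoc019780 has no count at 200 °Cd.

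As a group, the switched genes ended in different places. Of the 22 switched on, 12 had their highest mean at 200 °Cd and 10 were higher at 300 °Cd, where all 22 had at least 1 count. Of the 15 switched off, 6 had no count in any library of 300 °Cd and 11 had a count in at least 1 library from 300 °Cd on. Their summed share was 0.00844% at 100 °Cd and 0.000736% at 300 °Cd. The libraries from 300 °Cd on were shallower than those of 100 and 200 °Cd, so genes without counts there may be expressed at a low level.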

How the data were processed

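Whole grain RNA was sequenced as strand-specific polyadenylated libraries with paired reads of 125 bases, per the labels' protocols. Per the submitters' processing notes the authors used CASAVA 1.8.4, BWA 0.7.12-r1039 and an edgeR of unnamed version; neither reference nor counter is given in the sources used here. All tests took the deposited raw counts, which are whole numbers. The deposited normalized signal is the raw count divided by a constant per library and served only as an alternative scale. Gene length is as deposited.

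Members and lists were chosen with earlier results of these data known. Genes passing filterByExpr were TMM-scaled (trimmed mean of M values) and tested in edgeR 4.0.16 (R 4.3.3), quasi-likelihood, with the 6 libraries of both stages; p-values were adjusted by Benjamini-Hochberg. SE is |log2 fold change| over the root of F. The method was tested on simulated data with few changed genes, as many up as down. That does not test the scaling under a shift as large as the one between these stages. Named genes were, per direction, the called gene with the largest change in share and the switched gene with the highest level. Replicates differed by 4.51 to 10.1 times the chi-square expected from sampling. The edgeR p-values rest on the spread between the 3 libraries of a stage, pooled over both stages and drawn toward that of other genes. PCR reads are not independent molecules.

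Alternatives were DESeq2 1.42.0, its size factors, library totals, no filter, the filter, scale and spread of 18 or 9 libraries, the replicate number as a block, each library left out and thinning. Chosen after seeing the data were the authors' scaling and scaling without the most abundant genes.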

Additional observations from a re-analysis of the deposited data

How the results depend on the processing

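All 4 named genes kept their direction and call in all 16 other settings, with log2 fold changes of 4.97 to 5.64 for TmLoc019089 and -2.63 to -2.15 for TmLoc030328. With library totals alone 1533 genes were higher and 5073 lower, 2616 of them by at least 2-fold, and 28 genes of at least 1000 CPM were lower. With the filter, scale and spread taken from all 18 N-S- libraries 2230 genes were higher and 1473 lower. With no expression filter 287 were at least 8-fold lower. The cause was not tested for either. Otherwise the genes higher numbered 2066 to 3073 and those lower 1960 to 2776. With single libraries left out, 1244 to 1483 were higher and 1276 to 1429 lower by at least 2-fold, 418 to 497 and 183 to 284 by at least 8-fold, and 43 to 57 and 13 to 15 among genes of at least 1000 CPM. The switched genes numbered 46 on and 55 off at a minimum of 5 counts, 8 and 4 at 20, and 39 and 46 with 1 count allowed at the other stage. With single libraries left out, which can only keep or raise them, they numbered 25 to 41 and 24 to 42. The difference in genes detected, 200 minus 100 °Cd, ran from -464 to 154 with single libraries left out, so its direction rests on single libraries (64.3 without replicate 3 of 200 °Cd and 154 without replicate 3 of 100 °Cd). The share of the 20 most abundant genes differed by 7.46 to 9.03 points and the effective number by -2293 to -2019. Same-numbered libraries of the stages did not deviate together (correlations of -0.077, -0.0064 and -0.036, and no library correlated best with its own number), and with the replicate number as a block 2508 genes were higher and 2400 lower. At this depth a gene with no count in a stage may still be expressed below the floor of 3 counts over 3 libraries.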
